A study of Mus musculus with 4 samples.

Results

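The sites described here are 1722 intergenic stretches of the mouse genome at which both mTEChi libraries, and neither mTEClo library, carried a peak of antibody-targeted nuclease cutting. They were selected on the peak calls themselves: the peak intervals of the 4 libraries were merged where they shared at least 1 bp, and a region was kept when it held a peak of both mTEChi lists and of no mTEClo list and its midpoint lay more than 5 kb from every protein-coding gene. Presence in mTEChi and absence from mTEClo therefore define these regions and are not results. Chromosomes 1 to 19 gave 258125 merged regions, of which 109829 were intergenic by the same distance, and the members were 1.57% of the intergenic regions, a share set by the rule. For comparison, 2616 intergenic regions held a peak of both mTEClo lists alone and 928 held a peak in all 4 libraries.

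The 4 libraries came from medullary thymic epithelial cells, 2 of the mTEClo and 2 of the mTEChi population, from thymus of mice aged 4 to 5 weeks. All cells were Trp53-WT, enriched on beads as EpCAM+ cells and stained for flow cytometry, with 500000 cells per condition; by the labels the groups differ in cell type alone, and the gates that separated them were not stated. The method was CUT&RUN, in which a nuclease tethered to an antibody releases the DNA around the bound protein. Sample titles name p53 as the target, whereas the protocol text names BAF155, which belongs to the BAF complex that remodels nucleosomes, so the regions are called peaks without saying which protein they mark. Whether the libraries of a population came from separate mice is not stated, so any p-value measures nothing beyond library-to-library spread, which may be technical. No library of a control antibody, and no cells lacking Trp53, were analysed here. The files hold peaks and no genes' expression, so the labelled cell types could not be checked against marker transcripts.

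Medullary thymic epithelial cells display self-antigens to developing T cells and so remove or divert the T cells that recognise them. In common usage mTEChi cells carry more MHC class II and include the cells that express Aire, while mTEClo cells include their precursors and other states. Many enhancers lie far from genes. They are bound by transcription factors, opened by remodelling complexes such as BAF, and can act on genes far away, which need not be the nearest ones. p53 is a transcription factor that responds to cell stress and switches on genes for cell cycle arrest, repair and death.

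Because the rule kept midpoints more than 5 kb from protein-coding genes, only the annotated starts of other genes could be overlapped. Few of the mTEChi-only intergenic regions lay at such starts. Of the 1722 members, 30 (1.74%) overlapped a RefSeq promoter window, the 300 bp that run from 250 bp before to 50 bp after a gene start. All 30 of these windows belonged to long non-coding RNA genes, and in 15 of them both mTEChi summits fell inside the window. A promoter window was overlapped by 1.68% of mTEClo-only, 6.14% of all-4-library and 0.884% of all intergenic regions. The 4 windows printed next show the sequence under such members: the window of the best ranked member of this kind, the 2 windows with both summits inside that hold an AP-1 and an NF-kB match, and 1 with an AP-1 match close to both summits. They are RefSeq sequences of GRCm38.p6 on the strand of the gene, 5′ to 3′, and capitals mark every match to the AP-1 motif (TGANTCA, its own reverse complement) or to the 10 bp NF-kB motif on either strand. The windows are 5730403I07Rik at chr9:77399367-77399666 on the minus strand, Gm40007 at chr2:172276164-172276463 on the minus strand, Gm34643 at chr14:103012625-103012924 on the plus strand and Gm9875 at chr2:13558653-13558952 on the plus strand.
5730403I07Rik: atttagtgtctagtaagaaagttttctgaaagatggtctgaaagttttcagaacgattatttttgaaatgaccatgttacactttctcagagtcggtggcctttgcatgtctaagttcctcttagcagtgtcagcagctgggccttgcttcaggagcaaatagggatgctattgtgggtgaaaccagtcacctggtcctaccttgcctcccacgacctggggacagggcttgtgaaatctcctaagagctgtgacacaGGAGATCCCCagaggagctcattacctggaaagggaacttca
Gm40007: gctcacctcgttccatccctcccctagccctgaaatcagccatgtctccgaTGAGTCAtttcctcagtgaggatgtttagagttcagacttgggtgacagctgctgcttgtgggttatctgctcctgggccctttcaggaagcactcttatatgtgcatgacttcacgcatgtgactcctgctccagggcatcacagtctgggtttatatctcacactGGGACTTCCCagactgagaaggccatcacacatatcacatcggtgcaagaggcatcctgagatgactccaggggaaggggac
Gm34643: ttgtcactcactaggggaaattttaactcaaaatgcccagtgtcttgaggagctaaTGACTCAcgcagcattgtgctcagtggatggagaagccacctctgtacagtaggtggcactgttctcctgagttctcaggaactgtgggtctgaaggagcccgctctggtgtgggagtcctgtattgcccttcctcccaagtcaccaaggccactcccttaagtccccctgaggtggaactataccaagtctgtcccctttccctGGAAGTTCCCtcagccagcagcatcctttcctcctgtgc
Gm9875: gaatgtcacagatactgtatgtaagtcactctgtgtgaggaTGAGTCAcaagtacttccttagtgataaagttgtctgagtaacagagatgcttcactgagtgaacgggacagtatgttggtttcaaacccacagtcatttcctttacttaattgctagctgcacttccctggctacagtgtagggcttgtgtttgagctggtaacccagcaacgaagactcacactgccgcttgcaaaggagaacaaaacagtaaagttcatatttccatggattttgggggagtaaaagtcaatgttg

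In the 5730403I07Rik window the NF-kB match covers bases 259 to 268, counted from 1 at the 5′ end, and the summits lay at base 136 in mTEChi replicate 1 and base 255 in replicate 2, the latter 4 bases short of the match. The member there spans chr9:77399262-77399681, and the authors' peak scores were 9.08 and 7.23 in mTEChi replicates 1 and 2. In the Gm9875 window the AP-1 match covers bases 42 to 48 and the summits lay at bases 75 and 84, with scores of 7.26 and 4.34. Gm40007 carries AP-1 at bases 52 to 58 and NF-kB at bases 219 to 228, and its summits lay between them at bases 109 and 116 (scores 8.41 and 3.83). Gm34643 has the same order, AP-1 at bases 57 to 63 and NF-kB at bases 262 to 271, with summits at bases 149 and 155 (scores 2.38 and 8.53). In both of these windows the paired summits lay within 7 bp of each other and outside either motif. A match is a string of letters, not a measured binding site.

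Over the 30 promoter windows at members, AP-1 matches were found in 8 (26.7%), against 17.4% of the 46 windows at mTEClo-only regions, 8.2% of the 61 at regions of all 4 libraries, 12% of the 989 at any intergenic region and 7.84% of all 31396 promoter windows. All these shares count matches anywhere in a window, also in parts of it outside the region. At Gm33504, Gm52546 and Gm40948 the AP-1 match lay outside the member. Of the 15 windows with both mTEChi summits inside, 5 held an AP-1 match. AP-1 is the family of Fos and Jun proteins that acts at many epithelial enhancers. The NF-kB motif, bound by the factors downstream of RANK and CD40 that drive mTEC maturation, was in 7 windows (23.3%) at members, 4.35% at mTEClo-only regions, 23% at regions of all 4 libraries and 8.55% of all promoters. Runx (TGTGGTT) was in 5 windows (16.7%; 13% at mTEClo-only regions and 5.32% of all promoters), IRF (AANNGAAA) in 9 (30%; 28.3% and 23.8%) and the E-box CAGCTG in 6 (20%; 32.6% and 16.3%). The p53 half-site was in 2 windows (6.67%), against 19.6% at mTEClo-only regions and 8.35% of all promoters. Both matches, at Gm17508 and B230206L02Rik, lay in a part of the window outside the member, and neither window held a mTEChi summit. The Sp motif (GGGCGG) of CpG-rich promoters was in 3 (10%), against 15.2% at mTEClo-only regions, 47.5% at regions of all 4 libraries, 15.8% at any intergenic region, 16.3% of non-coding gene promoters and 36% of all promoters. Forkhead (TGTTTAC) gave 2 windows (6.67%; 3.71% of all promoters), CRE (TGACGTCA) 1 (3.33%; 1.83%) and Hnf4 (CAAAGTCCA) 1 (3.33%; 0.487%). Ets (CCGGAAG, 9% of all promoters), Grhl (AACCGGTT, 0.15%) and CTCF (1.11%) gave no match in the 30. All 30 windows belong to long non-coding RNA genes, so the 11311 promoters of non-coding genes are the closer comparison. There AP-1 was in 9.25%, NF-kB in 7.01%, Runx in 6.3%, IRF in 27.9%, the E-box in 17.6% and the p53 half-site in 10.2%. Ets was in 3.91% of them, forkhead in 4.91%, CRE in 0.99%, Hnf4 in 0.53%, CTCF in 1.44% and Grhl in 0.0884%. The windows at members had a median GC content of 49% and 3.5 CpG, against 53% and 7 CpG over all promoters and 48.3% and 4 CpG over the 11311 promoters of non-coding genes. Motifs were searched on both strands, they may overlap one another, and with 30 windows a change of 1 window moves a share by 3.33 points.

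MicroRNA genes are the other annotated transcripts near members. Of 919 hairpins tested, 11 (1.2%) lay within 10 kb of the midpoint of a member, against 28 (3.05%) for the mTEClo-only regions, which are more numerous. The mature sequences of the 4 described here are printed 5′ to 3′ from RefSeq with the seed, bases 2 to 8, in capitals; the 4 seeds differ from one another. They are shown because miR-34a is a textbook p53 target, miR-344 lies inside a member, and miR-129 and miR-22 have members at short distance.
miR-34a-5p: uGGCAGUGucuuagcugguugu
miR-344-3p: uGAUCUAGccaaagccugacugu
miR-129-5p: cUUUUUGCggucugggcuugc
miR-22-3p: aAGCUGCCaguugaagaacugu

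The member near Mir34a spans chr4:150059708-150060189 on mm10, and its midpoint lies 8506 bp before the hairpin at chr4:150068454-150068555. Its scores were 14.3 in mTEChi replicate 1 and 2.72 in replicate 2, so 1 library carried most of the evidence, and the nearest mTEClo summit lay 1925 bp away. The hairpin of Mir344, on the minus strand at chr7:61877770-61877864, lies wholly within the member chr7:61877621-61877942 (scores 6.68 and 3.34). That member is isolated: the nearest mTEClo summit was 45005 bp away and the nearest coding gene, Ndn, 470496 bp away. The member at Mir129-1 (chr6:29023316-29023781, scores 7.26 and 3.98) lay 857 bp from the hairpin and 747 bp from a mTEClo summit. The member 3076 bp from Mir22 (chr11:75460465-75460816, scores 4.23 and 5.27) sits 770 bp from the midpoint of a region with a peak in all 4 libraries. At Mir129-1 and Mir22, then, the mTEChi-only interval borders sites that mTEClo also carried, whereas at Mir344 it does not. Mir802, Mir1971, Mir6367, Gm51292, Mir3089, Mir152 and Mir1953 had members at 3081 to 8063 bp.

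The score deposited with each peak is the authors' own, on a −log10 scale of p or q, and it ranks peaks within a list without being a level of binding. In mTEChi replicate 1 the members' scores ran from 2.01 to 36.1 with a median of 4.08 and quartiles of 3.19 and 6.13. In replicate 2 they ran from 2.01 to 26.5 with a median of 3.83 and quartiles of 2.88 and 4.88. The median over all intergenic peaks of the same lists was 3.62 and 3.34. Members ranked above the middle of their lists more often than below it: 68.2% were in the upper 50% of the replicate 1 list and 71% in that of replicate 2, and 38.7% and 41.6% were in the highest 25%. In both lists at once, 366 (21.3%) were in the highest 25% and 6 among the 1000 highest peaks. The rule required a peak in both mTEChi lists, which may itself favour higher ranks, and this was not tested. Such shares were not computed for mTEClo-only regions. The plot of the paired scores shows a broad cloud in which a high score in 1 library often met a low one in the other.

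**Figure D1:**
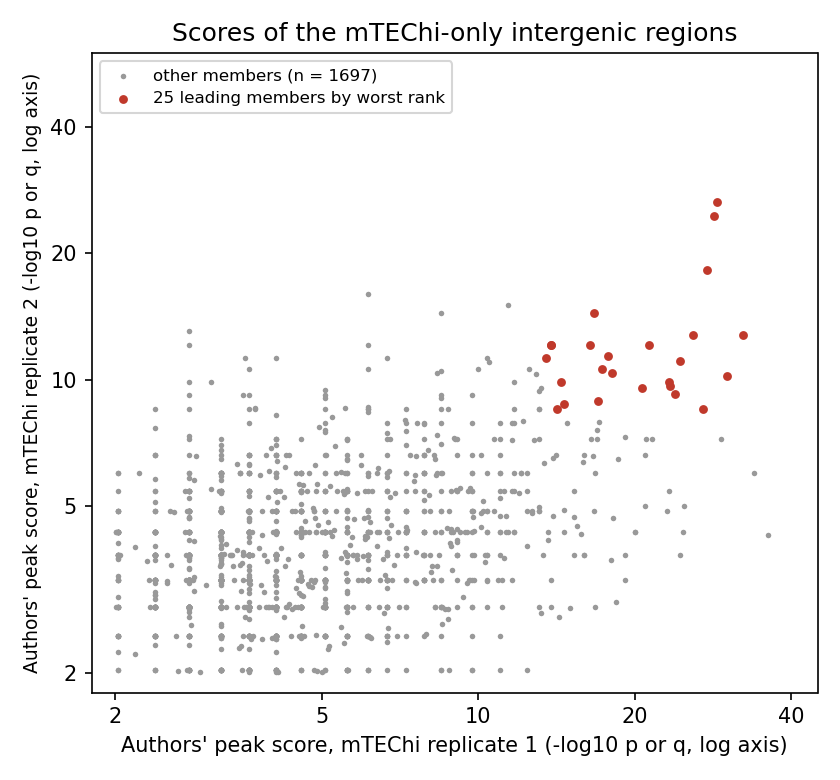
Authors' peak score of every member in mTEChi replicate 1 (x axis) and replicate 2 (y axis), both on log axes; each point is 1 region, and red points are the 25 members whose poorer rank over the 2 lists is best. The red points reach 28.8 and 26.5 at the top right, most of the other members lie at the low end of both axes, and the rows and columns of points are tied scores.

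The 25 leading members, those whose poorer rank over both lists was best, lay at very different distances from genes. In what follows a pair of scores is given for mTEChi replicates 1 and 2, and a pair of distances for mTEClo replicates 1 and 2, in that order. The first 4 members had Cntn5, Tmigd1, Fat1 and Tram1 as nearest genes, 476014, 12291, 476655 and 62528 bp away. These 4 members had scores of 28.8 and 26.5, 28.5 and 24.6, 27.6 and 18.3, and 32.3 and 12.8. Behind them came chr8:30587518-30587902, 501817 bp from Dusp26, which encodes a dual-specificity phosphatase (scores 25.9 and 12.8). The nearest summits to it were 5007 bp away in mTEClo replicate 1 and 19609 bp in replicate 2. The member chr7:114710576-114710921 lay 5807 bp from Calcb, which encodes a calcitonin gene-related peptide (21.3 and 12.1). The member chr19:44254197-44254509 lay 6025 bp from the channel gene Pkd2l1 and inside the pseudogene Gm6951 (24.5 and 11.1), and mapping to repeated sequence there was not tested. The member chr5:96901347-96901691, 55551 bp from the annexin gene Anxa3, had scores of 17.8 and 11.4. Each of these had both summits within 84 bp of each other, closer than the median offset of 88 bp over all members.

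Several leading members stood well clear of any mTEClo summit. The member chr14:88026512-88026910, 438032 bp from the protocadherin gene Pcdh20, had its nearest summit 41803 bp away in mTEClo replicate 1 and 115653 bp away in replicate 2 (scores 13.8 and 12.1). The member chr5:86856363-86856715, 19880 bp downstream of the m6A reader gene Ythdc1, had them at 63600 and 52391 bp (17.3 and 10.6). Others bordered mTEClo peaks. The member chr11:101658323-101658643, 7058 bp upstream of Arl4d, had a summit of mTEClo replicate 1 at 362 bp and the nearest of replicate 2 at 29389 bp (16.7 and 14.4). The member chr8:4678398-4678733, 45993 bp from Zfp958, had summits of both mTEClo libraries at 659 and 535 bp, next to a region of all 4 libraries (14.4 and 9.89). The remaining leading members had Marcks, Btbd11, Spink4, Tent5c, Diaph3, Ier5, Tifab, Gm38821, Grm4, Mtss1, Ccdc54, Wdr70 and Mcee as nearest genes. Their distances ran from 7510 bp at Gm38821 to 424629 bp at Diaph3, with Marcks (182560 bp) and Ccdc54 (109208 bp) also beyond 100 kb. Scores of these members ran from 13.5 to 30.1 in replicate 1 and from 8.53 to 12.1 in replicate 2.

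Over all members the midpoint was 323 to 115242 bp from the nearest mTEClo summit, with a median of 5352 bp and quartiles of 1994 and 11238 bp. A mTEClo summit lay within 1 kb of 230 members (13.4%), within 5 kb of 821 (47.7%) and within 10 kb of 1229 (71.4%). The last share was 52.9% when only peaks above the median score of each list were used and 20.7% with the 10000 highest, settings that also shorten the mTEClo lists. The mirror measure, mTEClo-only regions with a mTEChi summit nearby, gave 11.5%, 52.4% and 75.6%. The median to the nearest summit was 8389 bp in mTEClo replicate 1 and 10137 bp in replicate 2, and these lists held 89366 and 69131 peaks. Only 21 members (1.22%) lay within 1 kb of a region of all 4 libraries and 5 (0.29%) within 1 kb of a mTEClo-only region. Absence from a mTEClo list means that no peak was called there, not that no signal was present, and signal below the peak limit was not measured.

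Members had a shorter median distance to genes than intergenic regions in general. The distance to the nearest protein-coding gene had a median of 40585 bp (quartiles 15308 and 125662), against 50987 bp for mTEClo-only regions, 30202 bp for regions of all 4 libraries and 70122 bp for all intergenic regions. More than 50 kb away were 44.7% of members (769), 50.5% of mTEClo-only regions, 35.8% of regions of all 4 libraries and 57.8% of all intergenic regions. More than 500 kb away were 61 members (3.54%). Of the 4740 mTEChi-only regions, 36.3% were intergenic (95% Wilson interval 35 to 37.7), close to the 36.7% (35.6 to 37.8) of mTEClo-only regions. That share was above the 18.1% (17 to 19.1) of regions in all 4 libraries and below the 42.5% (42.4 to 42.7) of all merged regions. These intervals cover counting error only. The share of all peaks that was intergenic was 40.5% ± 0.105 in mTEChi and 39.5% ± 0.533 in mTEClo (SD, n = 2), a difference of 0.957 points (two-sided exact permutation test, p = 0.333, the smallest that 2 libraries against 2 allow). The direction turned among higher peaks, to -0.604 points above the median score and -2.43 points among the 10000 highest peaks of each list.

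**Figure D2:**
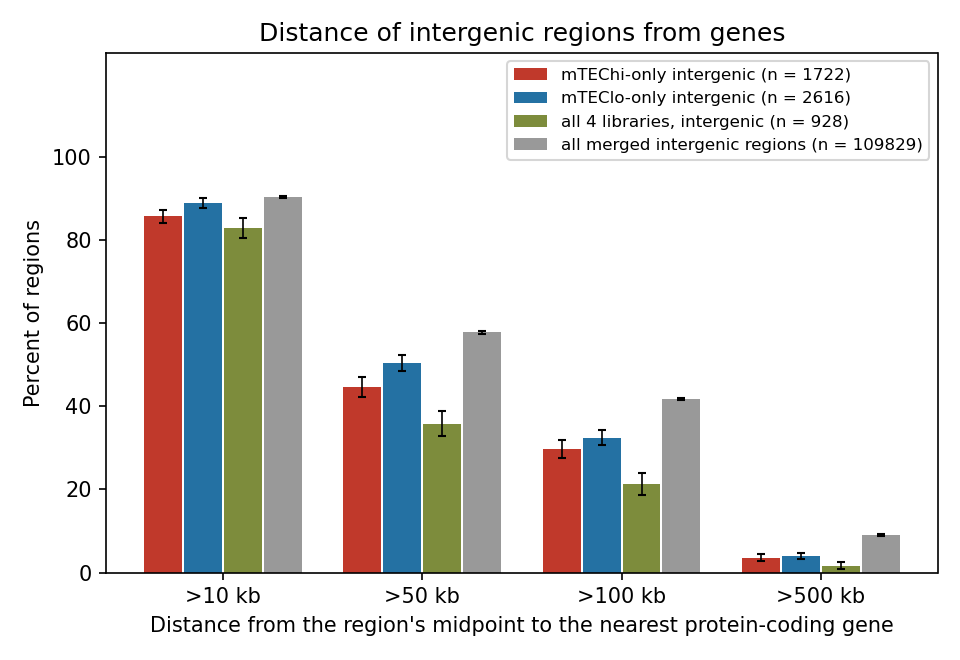
Percent of regions (y axis, from 0) whose midpoint lies farther than 10, 50, 100 or 500 kb from the nearest protein-coding gene, for mTEChi-only, mTEClo-only, all-4-library and all merged intergenic regions; error bars are 95% Wilson intervals. Beyond 50 kb the mTEChi-only bar stands at 44.7%, between the all-4-library bar at 35.8% and the mTEClo-only bar at 50.5%.

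The farthest member, chr14:82285287-82285657, lay 2158091 bp from Pcdh17 and had low scores of 2.77 and 2.04. The next farthest lay 1884051 bp from Cntnap5a (5.07 and 6.61), 1628049 bp from Slc39a10 (4.08 and 2.04), 1576962 bp from Pcdh20 (5.59 and 5.43) and 1301076 bp from Tmeff2 (3.62 and 4.34). Pcdh17, Pcdh20, Cntnap5a and Tmeff2 are best known from the nervous system, where protocadherins and contactin-associated proteins act in cell adhesion. At the 5 kb limit of the rule, the 5 members just inside lay 5049 bp from Tnip3, 5074 bp from Tha1, 5078 bp from Ccr1, 5126 bp from 4933421I07Rik and 5160 bp from Zp2, with scores from 3.19 to 9.71 in replicate 1. The 5 mTEChi-only regions just outside lay 4989 bp from Pard6g, 4966 bp from Aars2, 4918 bp from Otop1, 4917 bp from Epha7 and 4895 bp from Ovol2, with scores from 2.77 to 6.68.

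Most members were 2 overlapping peaks and nothing else: 1679 held exactly 1 peak of each mTEChi library and 43 held more. The 2 summits lay a median of 88 bp apart (quartiles 39 and 169; 69 bp for peaks above the median score and 52 bp for the 10000 highest), and in 538 members (31.2%) they lay within 50 bp. Midpoints fell inside a long non-coding RNA gene in 313 members (18.2%), against 20% of mTEClo-only, 23.8% of all-4-library and 16.2% of all intergenic regions. Where the strand of the nearest coding gene was known, 709 members lay upstream of it and 626 downstream. Per chromosome, the number of members for every 100 intergenic regions ran from 1.13 on chromosome 12 to 1.98 on chromosome 14. Chromosome 14 held 99 members and 99 mTEClo-only regions, whereas on chromosome 12 there were 0.479 members for each mTEClo-only region.

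Of 20665 protein-coding genes, 1032 (4.99%) were the nearest gene to at least 1 member within 100 kb, and 1453 (7.03%) were nearest to a mTEClo-only region; 252 were in both sets, which is 24.4% of the genes nearest to members. The 1032 became 573 with peaks above the median score, and 7050 and 6113 without mTEChi replicate 1 and replicate 2, when 1 mTEChi list suffices. Nearness does not show that a region acts on the gene. Over all genes, members were 1.89 of every 100 intergenic regions within 100 kb. The lists in the following paragraphs are short, and each count is read against these figures.

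Of 37 known p53 targets measured, 9 (24.3%) were nearest to a member, beside 4.99% of all genes, against 4 (10.8%) nearest to a mTEClo-only region, and members made up 10 of the 147 intergenic regions (6.8 per 100) assigned to these genes. The 9 were Cdkn1a, Ddb2, Gadd45a, Lif, Mdm2, Plk2, Pmaip1, Rrm2b and Trp53inp1. The member at Mdm2, the ubiquitin ligase gene that limits p53, spans chr10:117717554-117717917, 6977 bp upstream, with scores of 5.33 and 6.01; the nearest mTEClo summits lay 13617 and 5661 bp away in replicates 1 and 2. The member at Trp53inp1, a gene of p53-dependent stress responses, spans chr4:11147734-11148047, 8551 bp from the gene (18.2 and 4.7), with mTEClo summits at 455 and 605 bp. At Ddb2, a DNA damage recognition gene, the member chr2:91242595-91242935 lay 5633 bp away inside the long non-coding gene Gm31054 (9.71 and 4.34; mTEClo summits at 921 and 13885 bp). At Gadd45a, which encodes a growth arrest protein, the member chr6:67058341-67058851 lay 21189 bp upstream (6.37 and 4.34; 21106 and 2242 bp). Of these 4 members, the 1 at Mdm2 was the only one with no mTEClo summit within 5 kb. When every list was reduced to its 10000 highest peaks, none of the 37 targets was nearest to a member, so each such region ranked below 10000 in at least 1 mTEChi list.

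Genes of the NF-kB and TNF receptor pathway gave 5 of 23 (21.7%; 13% for mTEClo-only regions), with 7 members among 106 intergenic regions. Traf3, an inhibitor of the non-canonical arm, had a member 6191 bp upstream at chr12:111159930-111160330 (scores 9.23 and 5.54; mTEClo summits 4358 and 4341 bp away). Tnfaip3, the A20 inhibitor, had 3 members, of which chr10:19078184-19078499 lay 62931 bp upstream (4.08 and 4.34) and chr10:18952940-18953492 lay 47694 bp downstream (5.59 and 3.83). Traf6, the adaptor of RANK and CD40 that mTEC development needs, had 1 at 12949 bp upstream, chr2:101665283-101665659 (4.56 and 3.34). Rag1 lay almost as close to that member, 15939 bp away on its other side, and the nearest mTEClo summits were 21331 and 21844 bp away. Nfkbia and Nfkbiz, 2 other genes of the list, completed the group. Traf6 was also the single gene of 20 (5%) from the list of mature mTEC and antigen presentation genes, which was near the share of all genes.

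Subunits of the BAF complex gave 4 of 25 (16%; 4% for mTEClo-only regions). The ATPase gene Smarca4 had a member 6061 bp upstream at chr9:21609872-21610218, with scores of 13.1 and 8.53 and mTEClo summits 2036 and 6048 bp away. The alternative ATPase gene Smarca2 (9.08 and 3.83), Arid1b (3.62 and 6.61) and Smarce1 (3.62 and 3.34) had members at 26233, 47110 and 8702 bp. Chemokine and cytokine genes of the thymus gave 4 of 17 (23.5%), fewer than the 6 (35.3%) nearest to mTEClo-only regions. Il7, the survival factor of early thymocytes, had 3 members, among them chr3:7631020-7631352 at 17426 bp (7.38 and 6.61) and chr3:7665790-7666156 at 52213 bp (7.85 and 4.34), both inside the long non-coding gene Gm16685. The nearest mTEClo summits lay 12681 and 14713 bp from them. Ccl25, which attracts thymocyte precursors, had a member 8583 bp downstream at chr8:4368362-4368845 (6.13 and 8.53), with summits 36320 bp away in mTEClo replicate 1 and 795 bp away in replicate 2. Tnfsf11, the gene of RANK ligand, had 1 at 82286 bp (4.08 and 3.34), and Il15 was the remaining gene.

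Lists of epithelial genes are given for members and for the more numerous mTEClo-only regions. Over all genes the 2 shares were 4.99% and 7.03%, so each count is read against its own share. Ets factors of epithelium gave 5 of 15 (33.3%) for either class, with Ehf, Elf3, Ets2, Etv3 and Etv6 near members; the member at Etv3 had scores of 5.23 and 8.15. Genes of immature mTEC gave 4 of 20 (20%) against 6 (30%) for mTEClo-only regions. They included the keratin genes Krt5, with a member 5560 bp upstream at chr15:101718279-101718652 (3.83 and 4.28; mTEClo summits at 493 and 3996 bp), and Krt14, with 1 at 14466 bp upstream (4.56 and 3.34). Thymic epithelial identity genes also gave 4 of 20 against 6, including Epcam with a member 64196 bp upstream (11.2 and 3.76). Lineage factors of mimetic cells, the mTEC that take on features of peripheral tissues, gave 1 of 25 (4%) against 4 (16%), and the gene was Grhl1. Self-antigens of autoimmune disease gave 3 of 22 (13.6%) against 1 (4.55%), with Crp, Kcnrg and Ins2, the insulin gene, whose member lay 61104 bp away (4.08 and 2.88). AP-1 factors gave 2 of 19 (10.5%) for either class; Fos had 2 members, at 47628 and 55927 bp downstream. The tuft cell list gave Sox9 (1 of 14, 7.14%) and the microfold list Ccl20 (1 of 12, 8.33%). Per 100 intergenic regions assigned to a list, members were 2.13 for AP-1 factors, 1.92 for microfold and 1.67 for tuft cell genes. These are near the 1.89 of all genes. The figure was 3.68 for Ets factors, 3.14 for immature mTEC and for identity genes, 3 for self-antigens and 0.546 for lineage factors of mimetic cells.

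Markers of other cells that a sort can carry were counted in the same way. Thymocyte genes gave 2 of 20 (10%; 5% for mTEClo-only regions), with Cd3e and Runx3. Fibroblast and endothelial genes gave 3 of 14 (21.4%, against 0 for mTEClo-only regions). They were the endothelial genes Cdh5 (3.62 and 2.45), Kdr (3.19 and 3.34) and Tek (2.77 and 3.34). The other genes of this list had no member within 100 kb. Members were 2.78 of every 100 intergenic regions assigned to the list, and the same figure held for the thymocyte list. Without the 100 kb limit, Cdh5 was nearest to 4 members and 3 mTEClo-only regions. B cell and myeloid genes gave 1 of 15 (6.67%), Irf8, and members were 1.14 of every 100 intergenic regions assigned to them. Peaks carry no transcript level, so the part of other cells in the sorted populations was not tested. Large receptor families had few members: olfactory receptor genes gave 6 of 1104 (0.543%) and vomeronasal receptor genes 1 of 354 (0.282%), and members were 0.726 and 0.203 of every 100 intergenic regions assigned to them. Solute carriers gave 30 of 362 (8.29%), keratins 4 of 53 (7.55%), interleukins and their receptors 7 of 78 (8.97%), forkhead genes 5 of 41 (12.2%) and Sox genes 2 of 18 (11.1%), while serpins (3.23%), Zfp zinc finger genes (3.35%), cadherins (2.22%) and cytochrome P450 genes (2.02%) were below the share of all genes and beta-defensins (2 of 42, 4.76%) were near it. Counted per 100 intergenic regions the order changed: forkhead genes (1.63) and Sox genes (0.866) were below the 1.89 of all genes, while beta-defensins (3.45), solute carriers (2.65), keratins (4.12) and interleukins (3.89) were above it.

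**Figure D3:**
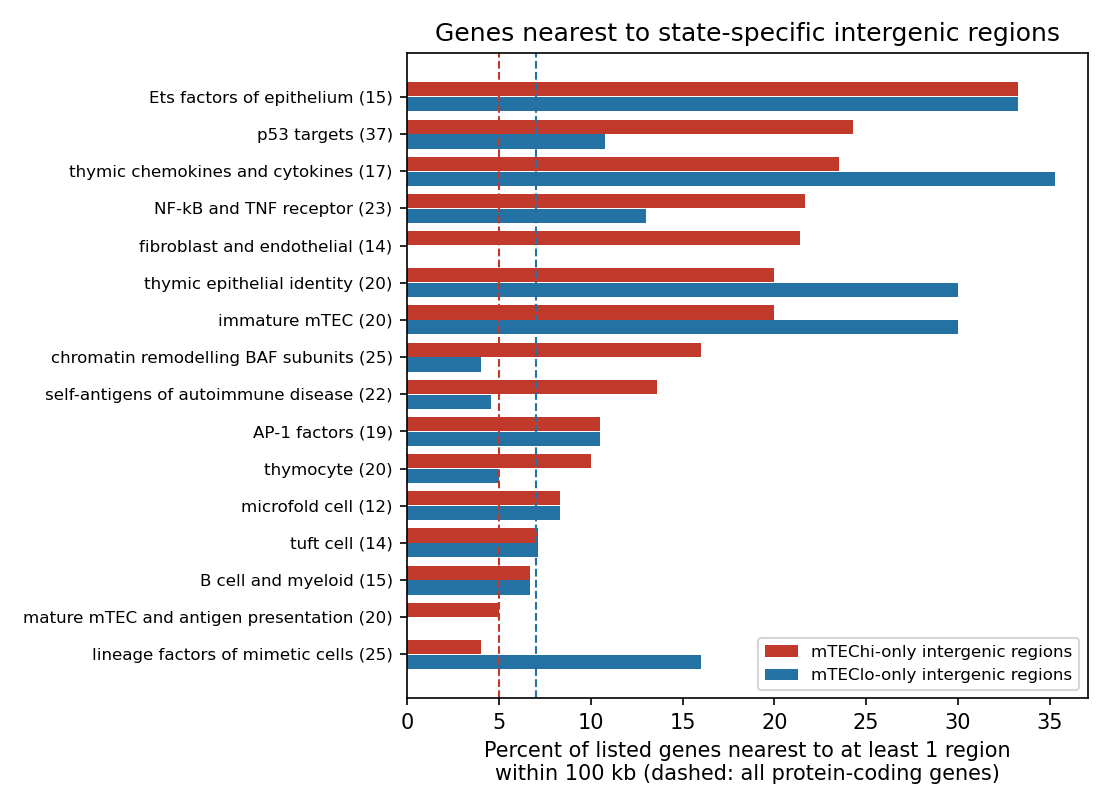
Percent of the genes of each list (y axis, number of genes in brackets) that are the nearest protein-coding gene, within 100 kb, to at least 1 mTEChi-only (red) or mTEClo-only (blue) intergenic region; dashed lines mark all protein-coding genes at 4.99% and 7.03%. The red bar exceeds the blue one for fibroblast and endothelial genes (21.4% against 0), p53 targets (24.3% against 10.8%), BAF subunits (16% against 4%), self-antigens (13.6% against 4.55%), NF-kB and TNF receptor genes (21.7% against 13%), thymocyte genes (10% against 5%) and mature mTEC genes (5% against 0), and the reverse holds for lineage factors of mimetic cells (4% against 16%), chemokines and cytokines (23.5% against 35.3%), immature mTEC genes and thymic epithelial identity genes (20% against 30% for both).

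Of the 1722 members, 193 (11.2%) lay within 10 kb of another and 573 (33.3%) within 100 kb, with a median gap of 246550 bp. Of the mTEClo-only regions, which are more numerous, 275 (10.5%) lay within 10 kb of each other, and their median gap was 149910 bp. Of the genes nearest to members within 100 kb, 882 had 1 member, 123 had 2, 25 had 3 and 2 had 4. Anxa3 and Ermard had 4 each; no mTEClo-only region was assigned to either, and they had 18 and 17 intergenic regions in all. Spink4, Ier5 and Tifab had 3 each. The 3 members at Tifab follow each other within chr13:56195820-56197292, with scores of 3.52 and 3.9, 23.9 and 9.26, and 10.5 and 11, and mTEClo summits lay 485 to 1665 bp from their midpoints. All 3 lie on 1 side of a region of all 4 libraries, whose midpoint is 541 bp beyond that of the last. At Spink4, which encodes a secreted protease inhibitor of goblet cells, 3 of the 6 intergenic regions were members, the highest at chr4:40898690-40899002 with scores of 23.3 and 9.89 and the nearest mTEClo summit 7426 bp away.

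The longest series of members lay beyond Gadd45g, a growth arrest gene of the same family as Gadd45a, at chr13:51846675-51848475. It was the nearest coding gene to 9 members, 2 mTEClo-only regions and 1 region of all 4 libraries among 82 intergenic regions, the largest number of members for any gene. All 9 lay downstream, from 23890 to 235108 bp away, in the gene-poor stretch before Diras2. The best by its poorer rank over both lists was chr13:51979353-51979761 at 131082 bp (6.37 and 6.01). The highest replicate 1 score was at chr13:52065793-52066128, 217485 bp away (7.94 and 2.48). That member ranked poorest of the 9 by its poorer rank, and a summit of mTEClo replicate 1 lay 323 bp from its midpoint. Scores over the 9 ran from 2.83 to 7.94 in mTEChi replicate 1 and from 2.48 to 6.06 in replicate 2, so none was a leading peak. The whole interval chr13:51826675-52103764 held 27 and 34 peaks of mTEChi replicates 1 and 2 and 18 and 16 of mTEClo replicates 1 and 2, so that both mTEChi counts exceeded both mTEClo counts, although mTEClo replicate 1 had the longest list. Among its 71 merged regions, 10 were mTEChi-only, 2 mTEClo-only and 1 in all 4 libraries. The interval was described because members were dense in it, so these counts carry no test. Other groups of 5 members within 100 kb had as nearest genes Btg1 and Eea1 (chr10:96316701-96405082) or Kcnj15 and Kcnj6 (chr16:95106254-95204987). Members of the former lay 212088 to 274287 bp from Btg1 or 271360 bp from Eea1, and those of the latter 52779 to 124629 bp from their nearest gene. Further groups of 5 had Anxa3 and Bmp2k (chr5:96872103-96963063) or Mxd1, Pcbp1, Asprv1 and Gm46963 (chr6:86547262-86641182) as nearest genes.

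**Figure D4:**
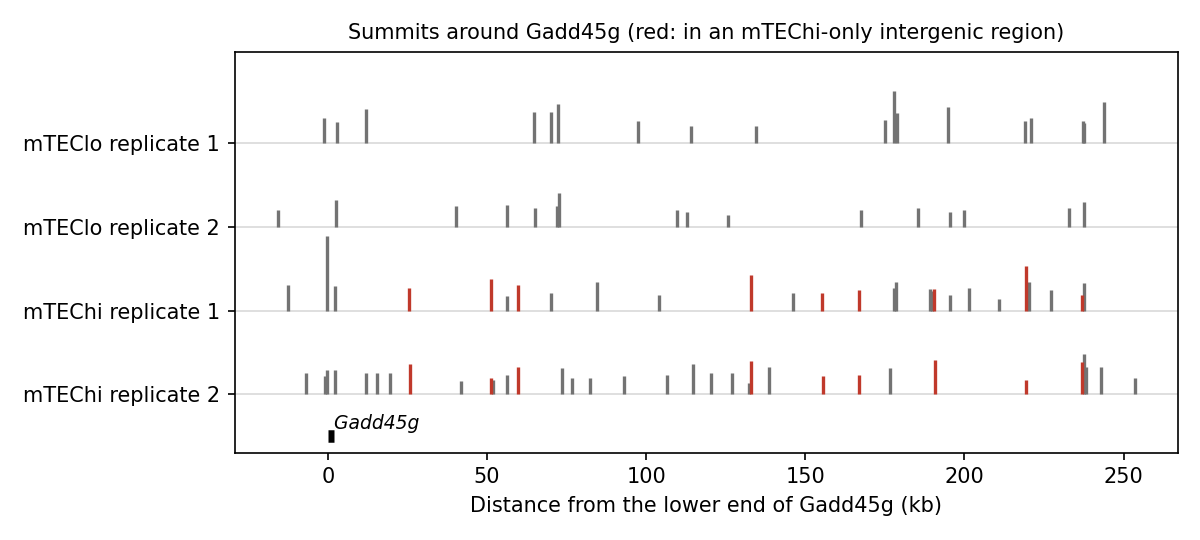
Peak summits around Gadd45g in the 4 libraries, by distance from the lower end of the gene in kb (x axis); each bar is 1 peak, bar height is proportional to the authors' score within that list, and red bars belong to mTEChi-only intergenic regions. The 9 members lie between 23890 and 235108 bp beyond the gene, among grey peaks of all 4 libraries.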

How the data were processed

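One peak list was analysed for each of the 4 libraries. The submitters' processing notes name MACS2 2.2.7.1, SAMtools 1.9, Picard and Bowtie2 2.2.9, with mm10 as the build; how they were set, and whether a control entered, is not given in the sources used here. Each deposited interval is 301 bp, a summit with 150 bp on each side, and the authors deposited a −log10 score with it, taken here to be of a p or q value (which is not stated) with a lower limit of 0.01. Depth is unknown. Scores were used only to rank peaks within a list.

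Intervals sharing at least 1 bp on chromosomes 1 to 19 were merged, and distances ran from the midpoint of a region to RefSeq GRCm38.p6 gene intervals. Members and gene lists were chosen with earlier results of these data known. Named regions were the 25 with the lowest worst rank over both mTEChi lists, the 5 farthest from a gene, the 5 on each side of the 5 kb limit, those of the 5 genes with most members within 100 kb, up to 4 for each gene list and the 3 densest groups. Gadd45g was described in full after its values were seen, and the microRNAs were all those within 10 kb. No genome sequence was used here, and promoter windows and mature microRNAs from RefSeq tables stand in for region sequences. Lists are described by counts. List genes without a matching autosomal gene were left out of the counts. The merging and distance steps were tested on simulated data. Python 3.11.15, numpy 2.4.6, pandas 2.3.3 and matplotlib 3.10.9 were used.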

Additional observations from a re-analysis of the deposited data

How the results depend on the processing

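The number of members, 1722, depended on how strictly a peak and its absence were defined. It was 973 when peaks of the 4 libraries were joined by summits within 75 bp in place of shared bases. That setting also narrowed the distance at which a mTEClo peak excluded a region. The count was 840 with only peaks scoring above the median of their list and 329 with the 10000 highest peaks. It was 769 with a gene distance of 50 kb and 901 when no mTEClo summit was allowed within 5 kb. Leaving out 1 library gave 1983 to 29474, the high end being without mTEChi replicate 1, where 1 list suffices (24666 without mTEChi replicate 2). It stayed within 1.5 times of the main count with equal list lengths, gene distances of 1 and 10 kb, all RefSeq genes in place of coding ones (1162) and no mTEClo summit within 1 kb. The intergenic percent of mTEChi-only regions, 36.3, was 33.1, 32.1 and 29.7 under the first 3 of these settings in the same order, 42.7, 31.2 and 16.2 at gene distances of 1, 10 and 50 kb, 24.5 with all RefSeq genes, and 32.4 to 45 with 1 library left out.

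The difference in the intergenic share of all peaks, 0.957 points, turned to -0.604 above the median score and -2.43 among the 10000 highest peaks, and was 0.58 to 1.33 without 1 library. With the replicate number as a replicate block it was 0.957 (exact sign-flip permutation p = 0.5). The labels do not say that replicate numbers mark pairs, and the correlation of same-numbered deviations was 0.0124. The cause of these shifts was not tested. The p53 target count, checked under settings added after seeing the data, was 6 to 10 of 37 in all but 1 of them, and 0 with the 10000 highest peaks. The planned motif search in windows around member summits was not run, since it needs a genome sequence.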
